A study of Mus musculus with 6 samples.

Results

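The CREB family factors and coactivators examined here are 9 genes, Creb1, Crem, Atf1, Creb5, Crtc1, Crtc2, Crtc3, Crebbp and Ep300, chosen by name from the 23557 genes of a bulk RNA sequencing table of mouse CT26 tumors. CT26 is a colorectal carcinoma line of the BALB/c strain, and 500000 cells were injected under the skin of young female BALB/c mice. The treated group received repeated intraperitoneal injections of H89 at 10 mg/kg, and the control group received NaCl by the same route. Whole tumors were taken on day 14, 3 per group, so that the RNA comes from carcinoma cells and from the host cells among them. Counts were scaled to counts per 1000000 (CPM) with edgeR's TMM factors, and all CPM in this text are on that scale. The question put to these genes was whether their transcripts differed between H89-treated and control tumors. The total per tumor lay between 27067349 and 31958793 estimated counts, and each of the 9 genes passed the minimum of a mean of 0.5 CPM.

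CREB proteins are bZIP transcription factors that bind as pairs to the cAMP response element (CRE). When cAMP rises, protein kinase A phosphorylates CREB1, ATF1 and CREM within the kinase-inducible domain, and this recruits the acetyltransferases CBP (Crebbp) and p300 (Ep300). The CRTC coactivators take a second route: salt-inducible kinases hold them in the cytoplasm through phosphorylation and 14-3-3 binding, and calcineurin releases them to the nucleus. H89 is a kinase inhibitor known mainly for blocking protein kinase A, and it also acts on other kinases of the same branch. These steps change proteins, and a transcript count does not measure phosphorylation, acetylation or location in the cell.

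Because these factors bind the CRE, the promoters of the members themselves were read for it, in RefSeq sequence of GRCm38.p6 from 250 bases before to 50 bases after each listed start. Of the 9 genes, 7 were found in the promoter table, with 8 windows. The palindrome TGACGTCA stood in 1 window, a Creb5 window, and in 1.79% of all 32851 mouse windows of this length. The core TGACG was searched on both strands and is contained in the palindrome in either direction. It stood in 2 windows, the same Creb5 window and that of Atf1, and in 20.8% of all windows. The other Creb5 window, at chr6:53573124-53573423, held neither the palindrome nor the core. The stretch shown for each gene ends before the outermost annotated start of that gene, on the plus strand, and the capitals mark the core and the palindrome. It lies at chr6:53287120-53287269 for Creb5, at chr15:100227669-100227818 for Atf1 and at chr1:64532554-64532644 for Creb1. The whole Creb1 window has neither motif, but its printed stretch covers only positions -250 to -160 from the RefSeq start. That stretch does not reach the positions at which the motifs of Creb5 and Atf1 lie.
Creb5: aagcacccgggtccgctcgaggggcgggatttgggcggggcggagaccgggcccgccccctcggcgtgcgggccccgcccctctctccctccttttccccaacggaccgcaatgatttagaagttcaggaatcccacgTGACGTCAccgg
Atf1: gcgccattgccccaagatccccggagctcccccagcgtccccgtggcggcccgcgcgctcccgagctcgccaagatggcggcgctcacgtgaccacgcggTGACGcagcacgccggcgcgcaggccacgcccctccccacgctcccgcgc
Creb1: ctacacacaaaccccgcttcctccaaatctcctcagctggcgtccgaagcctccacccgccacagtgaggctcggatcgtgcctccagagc
The palindrome of Creb5 begins 45 bases before the RefSeq start of its window, and the core of Atf1 begins 90 bases before that of its own. A motif match is a description of letters and says nothing on binding in these tumors.

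None of the 9 genes passed the test between the groups. At a Benjamini-Hochberg adjusted p under 0.05 in edgeR's quasi-likelihood test over 13118 genes, 0 of 9 were called, where 1.59% of all tested genes were called, 0.861% as higher and 0.724% as lower in H89-treated tumors. DESeq2 and limma-voom also called 0 of the 9, where DESeq2 called 10.4% of the 13350 genes to which it gave an adjusted p. At an unadjusted p under 0.05, 1 of the 9 passed, Ep300, against a background of 25.0% of all genes. Log2 fold changes of H89 over NaCl ran from -0.093 for Creb1 to 0.29 for Ep300, with 5 above and 4 below 0 and a median of 0.12, beside a median of 0.004 over all tested genes. These values lay inside the 5th to 95th percentile of all tested genes, which ran from -0.42 to 0.79. The narrowest 95% confidence interval, that of Crtc3, ran from -0.23 to 0.10, and the widest, that of Creb5, from -0.50 to 0.74, so a change of Creb5 in either direction lies within its interval. In bulk tumors, fewer cells of a type and less RNA per cell cannot be told apart.

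**Figure D1:**
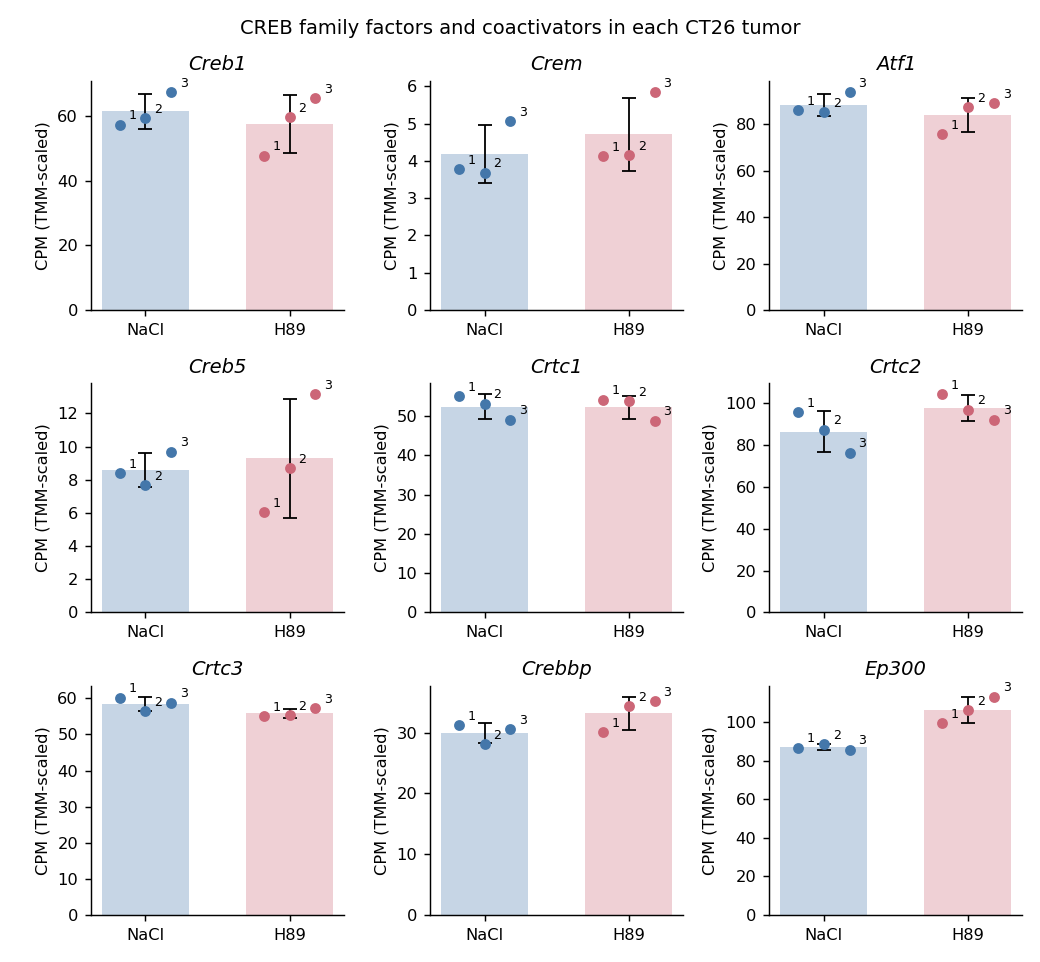
TMM-scaled CPM of each CREB family gene (y axis, from 0) in the NaCl and H89 groups (x axis). Points are tumors with their label number, bars are group means and error bars are SD (n = 3). Only for Ep300 do all 3 H89 values lie above all 3 NaCl values.

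Among the DNA-binding factors, Creb1 encodes the founding member of the family. It lies on chromosome 1 from 64532645 to 64604548 (GRCm38, plus strand). Its level was 57.4, 59.5 and 67.5 CPM in NaCl tumors 1 to 3 and 47.8, 59.6 and 65.5 CPM in H89-treated tumors 1 to 3. The groups overlapped, with the lowest value in H89 tumor 1 and the highest in NaCl tumor 3. The mean was 61.5 ± 5.34 CPM in NaCl and 57.6 ± 9.05 CPM in H89 (SD, n = 3), the log2 fold change was -0.093 (SE 0.128) and edgeR's adjusted p was 0.681. Atf1, the close homolog that can pair with CREB1, lies on chromosome 15 from 100227819 to 100261244. It measured 86.0, 85.4 and 94.0 CPM in NaCl and 75.8, 87.5 and 89.2 CPM in H89 tumors, again lowest in H89 tumor 1 and highest in NaCl tumor 3. Its log2 fold change was -0.071 (SE 0.091, edgeR adjusted p 0.658).

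Crem and Creb5 were the least abundant members. Crem encodes activators and, from an internal promoter, the cAMP-inducible repressor ICER. The table gives 1 value per gene, so the share of ICER among the 39 annotated Crem transcripts was not measured. Crem stood at 3.78, 3.68 and 5.07 CPM in NaCl and at 4.13, 4.15 and 5.85 CPM in H89 tumors, which is 99 to 192 counts per tumor. The tumor numbered 3 was the highest of its group in both groups, and the groups overlapped. The log2 fold change of Crem was 0.17 (SE 0.221, edgeR adjusted p 0.657), and it was -0.013 when H89 tumor 3 was left out. On the opposite strand Crem overlaps Gm6225, and the sources used here do not state whether counting used strand.

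Creb5 encodes a CRE-binding factor closer to ATF2 and ATF7 than to CREB1. Its gene spans chromosome 6 from 53287270 to 53700376 and overlaps the annotated Gm25818 on the same strand. The level was 8.4, 7.66 and 9.69 CPM in NaCl and 6.04, 8.68 and 13.2 CPM in H89 tumors. The H89 group held both the lowest and the highest value of the 6 tumors, and its range of 1.06 on the log2(CPM + 0.5) scale was the widest among the members, against 0.32 in NaCl. The log2 fold change was 0.12 (SE 0.267, edgeR adjusted p 0.811). Without H89 tumor 3 it was -0.22, under quantile normalization with limma -0.052, and with a correction for transcript length and GC content -0.10, so no direction was read for this gene.

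H89 tumor 3, the highest tumor for Crem, Creb5, Crebbp and Ep300, also had the highest summed level of the 6 T cell markers, at 51.0 CPM, and of the 5 neutrophil markers, at 34.4 CPM. The T cell markers summed to between 10.1 and 21.4 CPM in NaCl and between 21.02 and 51.0 CPM in H89 tumors, and 0 of 6 were called by edgeR, with 4 of 6 higher at an unadjusted p under 0.05 and 2 called by DESeq2. Over all genes, 25.0% of those tested passed that unadjusted p in edgeR, and DESeq2 called 10.4% of the genes to which it gave an adjusted p. The neutrophil sum ran from 16.0 to 20.3 CPM in NaCl and from 20.3 to 34.4 CPM in H89 tumors, with Ly6g under 0.5 CPM throughout. Of the 4 neutrophil markers tested, Csf3r and Cxcr2 had log2 fold changes above 0 and S100a8 and S100a9 below 0, with a median of -0.20, or -0.94 without H89 tumor 3. The edgeR test called 0 of the 4, with 1 at an unadjusted p under 0.05, and DESeq2 called Csf3r. The part of these cells in the levels of Crem, Creb5, Crebbp and Ep300 was not tested.

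**Figure D2:**
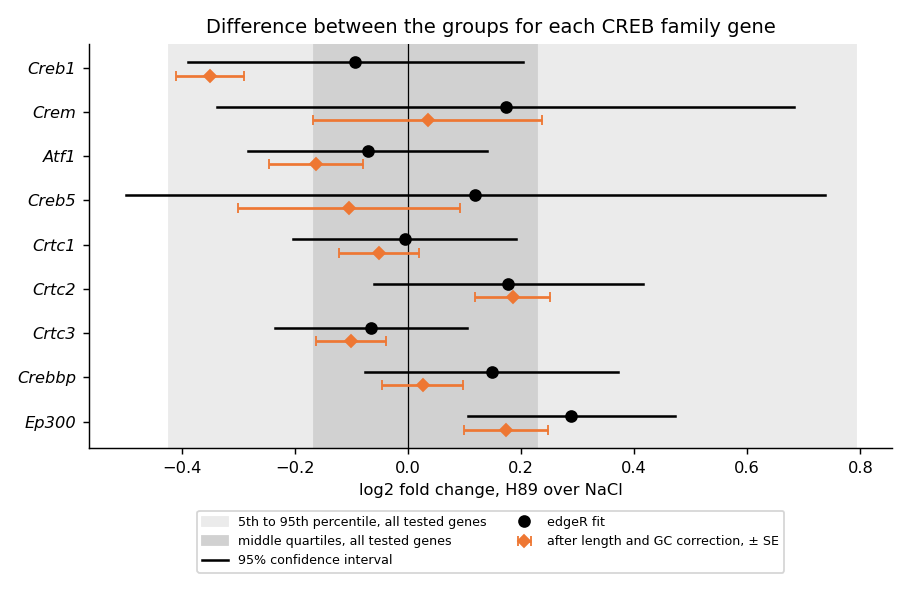
Log2 fold change of H89 over NaCl (x axis) for each CREB family gene (y axis). Black points with lines are the edgeR estimate and its 95% confidence interval, orange diamonds with bars are the estimate and SE after correction for transcript length and GC content, and the shaded bands are the 5th to 95th percentile (light) and the interquartile range (dark) of all tested genes. The interval of Ep300, from 0.11 to 0.47, is the only black line that does not cross 0, and Creb1 moves from -0.093 to -0.35 under the correction.

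The CRTC coactivators bind the bZIP domain of CREB and do not need its phosphorylation. Crtc2, the form best known from liver gluconeogenesis, lies on chromosome 3 from 90254163 to 90264125. It measured 95.5, 87.1 and 76.1 CPM in NaCl and 104.0, 96.6 and 91.9 CPM in H89 tumors. The means were 86.3 ± 9.73 and 97.5 ± 6.12 CPM (SD, n = 3), and NaCl tumor 1 lay above H89 tumor 3, so the groups overlapped. Its log2 fold change was 0.18 with a 95% confidence interval from -0.060 to 0.41 (edgeR adjusted p 0.319). The overlap depended on the scaling: without the TMM factors the H89 values, 102.2, 99.5 and 97.7 CPM, all lay above the NaCl values, 91.3, 86.3 and 74.7 CPM. Without those factors 20.5% of all genes lay wholly higher and 10.0% wholly lower in H89 tumors.

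Crtc1 and Crtc3 were the steadiest members. Crtc1, on chromosome 8 from 70382355 to 70439579 on the minus strand, measured 55.1, 53.1 and 49.0 CPM in NaCl and 54.1, 53.7 and 48.8 CPM in H89 tumors. In both groups the tumor numbered 3 was the lowest. The log2 fold change was -0.005, with an interval from -0.20 to 0.19 and an edgeR adjusted p of 0.978. Crtc3, on chromosome 7 from 80586627 to 80688877, measured 60.2, 56.4 and 58.8 CPM in NaCl and 55.0, 55.3 and 57.2 CPM in H89 tumors. All 6 values of Crtc3 lay within 0.13 of each other on the log2(CPM + 0.5) scale, the smallest range of the 9 genes, and its log2 fold change was -0.065 (SE 0.073, edgeR adjusted p 0.610).

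Ep300, which encodes p300, was the member with the largest difference. The gene lies on chromosome 15 from 81585351 to 81652077 on the plus strand and overlaps the annotated Gm23880. Ep300 stood at 86.8, 88.7 and 85.7 CPM in NaCl tumors 1 to 3 and at 99.5, 106.4 and 113.3 CPM in H89-treated tumors 1 to 3. Every H89 value lay above every NaCl value, a separation that 30.6% of all tested genes show in either direction, 15.2% as higher and 15.5% as lower in H89. The mean was 87.1 ± 1.48 CPM in NaCl and 106.4 ± 6.87 CPM in H89 (SD, n = 3), which is 1.22-fold with a 95% confidence interval from 1.08 to 1.39. The unadjusted p was 0.00656 and the adjusted p 0.089 in edgeR's test, so the difference did not pass the threshold set over all genes. The exact two-sided permutation test gave 0.1, the smallest p it can give for 3 tumors against 3. Over the 14 alternatives the log2 fold change stayed between 0.17 and 0.34 and the adjusted p between 0.0608 and 0.213.

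Crebbp, the paralog of Ep300, encodes CBP, and both proteins acetylate histones at enhancers and bind phosphorylated CREB. It lies on chromosome 16 from 4081328 to 4213997 on the minus strand. Its level was 31.2, 28.1 and 30.6 CPM in NaCl and 30.1, 34.3 and 35.1 CPM in H89 tumors. H89 tumor 1 lay among the NaCl values, and the other two H89 tumors lay above them. The log2 fold change was 0.15 (SE 0.097, edgeR adjusted p 0.372). Every deposited value of Crebbp and of Ep300 was a whole number, whereas the other 7 genes had values that were not.

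Exact permutation tests of the group means gave a p of 0.1 for Ep300 and between 0.2 and 0.9 for the other 8 genes. Compared per kilobase of the longest coding transcript, the 9 genes ranged over more than an order of magnitude. Atf1 had the highest level, at 36.5 ± 2.53 CPM per kilobase (SD over the 6 tumors), followed by Crtc2 at 33.4 ± 3.47, and their ranges overlapped. Crtc3 came next at 11.2 ± 0.395, Ep300 at 10.1 ± 1.20 and Crtc1 at 9.20 ± 0.474 CPM per kilobase, and neighbours among these 3 overlapped too. Creb1 stood at 7.12 ± 0.833, below Crtc1 in 6 of 6 tumors and with no overlap of the ranges, and Crebbp stood at 2.92 ± 0.247 CPM per kilobase. Crem at 1.52 ± 0.289 and Creb5 at 1.13 ± 0.302 CPM per kilobase closed the order with overlapping ranges. These levels rest on 1 chosen transcript per gene, so genes expressed as shorter forms are understated.

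**Figure D3:**
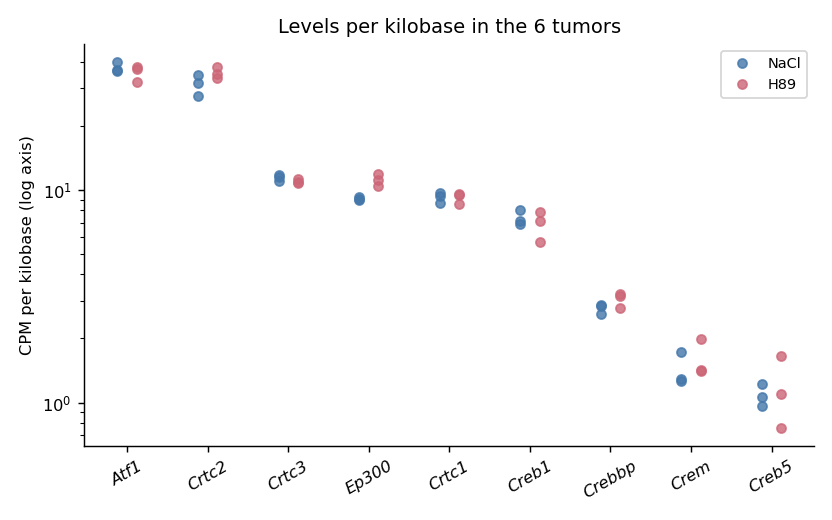
TMM-scaled CPM per kilobase of the longest coding transcript (y axis, log scale) for the 9 genes in order of their mean (x axis), with 1 point per tumor. Atf1 and Crtc2 form the upper pair, and Crebbp, Crem and Creb5 lie lowest.

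Of the 36 pairs of members, Creb1 and Atf1 had the highest Pearson's r from tumor to tumor. Creb1 and Atf1 had Pearson's r of 0.98 and Spearman's rho of 0.94 over the 6 tumors, with exact permutation p of 0.0042 and 0.017. After Benjamini-Hochberg adjustment over the pairs these were 0.15 and 0.3, so neither passed. Without NaCl tumor 3 and H89 tumor 1, the tumors farthest from the median of Creb1, r was 0.85, and other pairs then stood higher, such as Creb1 and Crem at 0.95. Atf1 and Creb5 had the same rho of 0.94. For each member the tested gene with the most similar pattern of log2(CPM + 0.5) over the 6 tumors was also recorded, as a description among 13109 genes. It was Rnf2 for Creb1 (r = 0.995), Arcn1 for Atf1 (0.996), Cox11 for Crem (0.993), Hivep2 for Creb5 (0.997), Suv39h1 for Crtc1 (0.990), L1cam for Crtc2 (0.992), Zfp688 for Crtc3 (0.993), Jag1 for Crebbp (0.989) and Unkl for Ep300 (0.998). With 6 tumors such values were reached by many genes: between 28 genes, for Crtc1, and 121 genes, for Ep300, had an r above 0.95 with a member.

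The spread of Creb1 within each group was smaller after a correction for transcript length and GC content. Its longest coding transcript has 8364 bases, longer than 95.5% of tested genes, and a GC content of 39.6%, which places it at percentile 4.1. The 181 tested genes within 5 percentiles of Creb1 in both had a median log2 fold change of 0.14, while Creb1 itself was at -0.093. A loess trend of length and GC, fitted in each tumor over 98.5% of the tested genes, stood for Creb1 at -0.25, -0.14 and 0.018 in NaCl and at -0.098, 0.16 and 0.31 in H89 tumors on the log2 scale. The mean trend for Creb1 was 0.25 higher in H89 than in NaCl tumors, beyond the median of 0.14 of those 181 genes. The correction thus took more from Creb1 than the difference seen in genes like it, and its corrected result rests on that. After removal of that trend Creb1 measured 68.2, 65.7 and 66.7 CPM in NaCl and 51.1, 53.2 and 53.0 CPM in H89 tumors. The Creb1 groups no longer overlapped, and the SD fell to 1.29 CPM in NaCl and to 1.14 CPM in H89. In that fit Creb1 was lower in H89-treated tumors, with a log2 fold change of -0.35 (SE 0.060, edgeR adjusted p 0.0381), and it was then the only 1 of the 9 genes called, where 5.63% of the 12920 genes in that fit were called. At an unadjusted p under 0.05, 3 of the 9 passed there, Creb1, Crtc2 and Ep300, against 30.3% of all genes. After the correction 5 of the 9 did not overlap between the groups, Creb1, Atf1 and Crtc3 lower and Crtc2 and Ep300 higher in H89 tumors, where 35.6% of all genes did not overlap, 11.3% as higher and 24.3% as lower. The correction moved the median of all genes to -0.067 and raised the genes called over the whole table from 208 to 727, of which 191 were higher and 536 lower, where the fit without it had 113 higher and 95 lower.

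**Figure D4:**
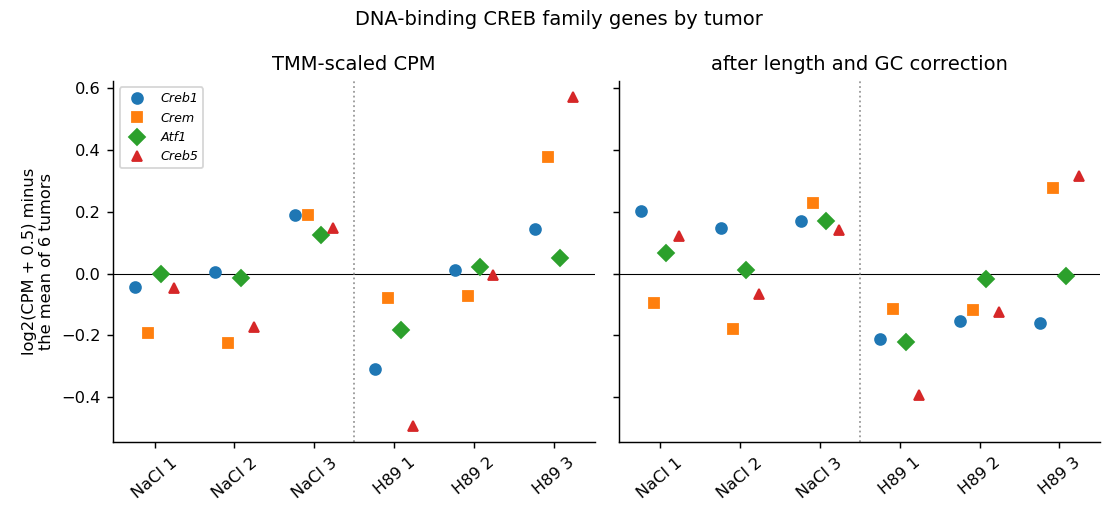
Log2(CPM + 0.5) of the 4 DNA-binding factors in each tumor, minus the gene's mean over the 6 tumors (y axis), from TMM-scaled CPM on the left and after the length and GC correction on the right. The Creb1 points of the H89 group span 47.8 to 65.5 CPM before the correction and 51.1 to 53.2 CPM after it, all below NaCl.

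The same correction lowered the estimate of every other member except Crtc2. Ep300, with 9566 bases, fell to a log2 fold change of 0.17 (SE 0.074, edgeR adjusted p 0.161), and its corrected values were 91.6, 95.3 and 85.1 CPM in NaCl and 108.4, 99.5 and 98.8 CPM in H89 tumors, which still did not overlap. The 102 genes most like Ep300 in length and GC had a median of 0.11. Crebbp, the longest member with 10820 bases, went to 0.026. Atf1 went to -0.16 (SE 0.083, edgeR adjusted p 0.222), and its values, 90.3, 86.8 and 97.0 CPM in NaCl and 73.8, 85.1 and 85.7 CPM in H89 tumors, no longer overlapped. Crtc2 kept a similar estimate, 0.19 (SE 0.067), but its SD fell to 4.89 CPM in NaCl and 1.84 CPM in H89. Its corrected values, 90.2, 86.8 and 80.5 CPM in NaCl and 97.9, 99.2 and 95.5 CPM in H89 tumors, did not overlap, and its unadjusted p went from 0.124 to 0.0261 (edgeR adjusted p 0.12). Crtc3 measured 54.5 to 56.3 CPM in H89 and 57.6 to 61.2 CPM in NaCl after the correction, with an edgeR adjusted p of 0.304. Whether length and GC act here through the libraries or follow other differences between the tumors was not tested.

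Around the 9 genes, 6 fixed lists of CREB pathway genes were counted, and the number tested is given with each list. In these lists 3 genes were called by edgeR, where 1.59% of all tested genes were called. For every list gene below without overlap, the background is 15.2% of all tested genes wholly higher and 15.5% wholly lower in H89 tumors. The kinases that phosphorylate CREB come first. Of 13 kinase genes tested, 0 were called by edgeR and 2 by DESeq2, 1 was higher and 3 were lower at an unadjusted p under 0.05, and the list's median log2 fold change was -0.17. Among all tested genes 25.0% passed that unadjusted p in edgeR, and DESeq2 called 10.4% of the genes to which it gave an adjusted p. Rps6ka2, which encodes the ribosomal S6 kinase RSK3, measured 39.5, 48.6 and 50.1 CPM in NaCl and 26.2, 33.5 and 31.1 CPM in H89 tumors, without overlap (log2 fold change -0.61, edgeR adjusted p 0.0617). Camk4, a calcium-dependent CREB kinase abundant in T cells, measured 2.58, 2.18 and 2.17 CPM in NaCl and 3.58, 3.56 and 5.54 CPM in H89 tumors (log2 fold change 0.87, edgeR adjusted p 0.0909), with its highest value in the tumor with the highest T cell marker sum. The part of T cells in that value was not tested. Camk1, a related calcium-dependent kinase, had a log2 fold change of -0.18 (edgeR adjusted p 0.178).

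Of the kinases that the authors name as inhibited by H89, protein kinase A and MSK1 stand in the same list. Their genes were singled out for that reason, not by their values. The authors also name S6K1 and ROCK-II, which are not in the list and were not examined here. Prkaca, the main catalytic subunit of protein kinase A, had a mean of 138.6 ± 16.3 CPM in NaCl and 119.7 ± 13.0 CPM in H89 tumors (SD, n = 3), a log2 fold change of -0.21 and an edgeR adjusted p of 0.298. Prkacb, the second catalytic subunit, had means of 108.8 ± 8.53 and 106.8 ± 6.36 CPM and an adjusted p of 0.883 in edgeR. Rps6ka5, which encodes MSK1, a kinase of CREB and histone H3, had means of 5.52 ± 1.14 and 6.27 ± 1.71 CPM and an edgeR adjusted p of 0.679. For each of these genes the groups overlapped.

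The phosphatases that reverse CREB phosphorylation are catalytic subunits of PP1 and PP2A. All 5 had log2 fold changes below 0, from -0.30 to -0.12, with 0 called by edgeR, 1 called by DESeq2 and 2 at an unadjusted p under 0.05 in edgeR. Of all 13118 tested genes, 6480 lay below 0 and 25.0% passed that unadjusted p in either direction. DESeq2 called 10.4% of the genes to which it gave an adjusted p. Ppp1ca measured 218.1, 225.5 and 220.5 CPM in NaCl and 196.0, 177.3 and 167.4 CPM in H89 tumors, without overlap (log2 fold change -0.30, edgeR adjusted p 0.101). Ppp2cb was at -0.17 (adjusted p 0.200) and Ppp1cc at -0.14 (adjusted p 0.30) in the same edgeR fit.

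Of 17 tested genes that control the CRTC proteins, 0 were called as higher and 1 as lower, with a median log2 fold change of -0.087. Ywhag, which encodes the 14-3-3 gamma protein, fell from 685.5, 601.2 and 624.6 CPM in NaCl to 461.7, 431.1 and 457.1 CPM in H89 tumors, with no overlap (log2 fold change -0.50, SE 0.087, edgeR adjusted p 0.0443). Under quantile normalization with limma it was -0.31 and no longer called (adjusted p 0.103). Ywhab, for 14-3-3 beta, was at -0.17 with an edgeR adjusted p of 0.220. Sik2, a salt-inducible kinase that phosphorylates CRTC proteins, measured 26.3, 26.6 and 27.3 CPM in NaCl and 31.5, 34.6 and 35.7 CPM in H89 tumors, which did not overlap, but its adjusted p was 0.0813 in edgeR (log2 fold change 0.34).

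Among 14 other acetyltransferases and coactivators tested, 1 was called, as lower. Cited2, whose protein binds the CH1 domain of CBP and p300 and competes there with HIF-1 alpha, fell from 147.7, 153.0 and 143.7 CPM in NaCl to 101.8, 99.1 and 113.3 CPM in H89 tumors (log2 fold change -0.50, SE 0.084, edgeR adjusted p 0.0415), a call lost under quantile normalization with limma (adjusted p 0.052). Kat2b, the acetyltransferase PCAF that binds p300 and CBP, was at 0.42 (edgeR adjusted p 0.108), and its H89 values, 51.0, 52.6 and 69.9 CPM, lay above the NaCl values, which reached 44.97 CPM. Carm1, an arginine methyltransferase that acts on both CBP and p300, was at -0.18 (edgeR adjusted p 0.195).

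Of 14 further CREB/ATF bZIP factors tested, 1 was called, as higher. Crebzf, also called Zhangfei, rose from 39.1, 41.5 and 42.7 CPM in NaCl to 53.3, 55.7 and 60.4 CPM in H89 tumors (log2 fold change 0.46, SE 0.085, edgeR adjusted p 0.0483). The stress-response factor Atf5 measured 1382, 1080 and 1034 CPM in NaCl and 800.0, 704.9 and 640.7 CPM in H89 tumors (log2 fold change -0.70, edgeR adjusted p 0.0515). Atf4, the main effector of the integrated stress response, was at -0.34 with an edgeR adjusted p of 0.080. In DESeq2's test, which called 10.4% of the genes to which it gave an adjusted p, 4 genes of this list were called. They were Atf4, Atf5, Atf6b and Crebzf. Each of the 3 calls, Crebzf, Ywhag and Cited2, was lost in edgeR with any 1 tumor left out, where adjusted p lay between 0.0663 and 0.142, and each kept its direction. Those fits called between 0 and 12 genes over the whole table, against 208 with all tumors. The loss is therefore not particular to these 3 genes. All 3 were also lost under quantile normalization with limma, with adjusted p of 0.0627 for Crebzf, 0.103 for Ywhag and 0.052 for Cited2. The limma-voom fit lost Crebzf, at an adjusted p of 0.0503.

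Textbook CREB target genes had no common direction. Of 26 tested, 13 had a log2 fold change above and 13 below 0, with a median of -0.012, and 0 were called by edgeR. At an unadjusted p under 0.05, 2 were higher and 4 lower, where 25.0% of all tested genes passed in either direction. Ccnd1, which encodes cyclin D1, measured 1348, 1332 and 1235 CPM in NaCl and 940.6, 1025 and 947.9 CPM in H89 tumors (log2 fold change -0.43, edgeR adjusted p 0.0529). Areg, the EGF receptor ligand amphiregulin, measured 9.24, 11.2 and 16.0 CPM in NaCl and 5.06, 3.83 and 6.87 CPM in H89 tumors (log2 fold change -1.21, edgeR adjusted p 0.0659). Bcl2, the survival factor, was at 0.40 with an edgeR adjusted p of 0.110. DESeq2 called 3 genes of this list, Areg, Ccnd1 and Cebpb, where it called 10.4% of the genes to which it gave an adjusted p.

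**Figure D5:**
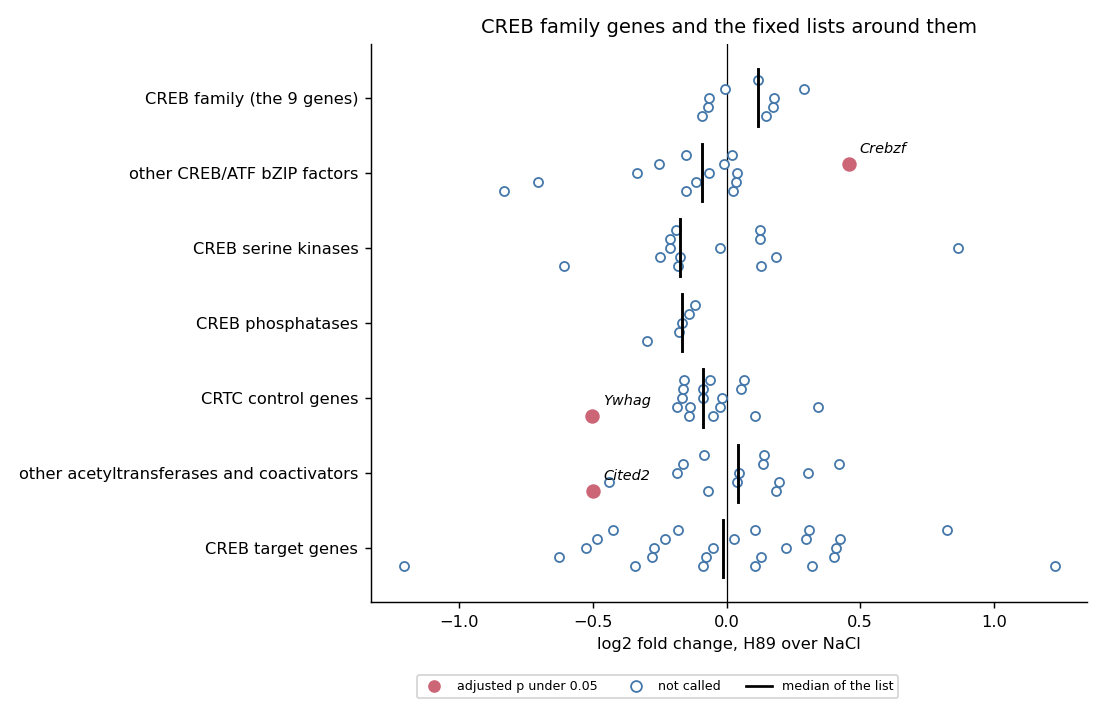
Log2 fold change of H89 over NaCl (x axis) for the tested genes of the CREB family and of the 6 fixed lists (y axis), with 1 point per gene and a line at each list's median. Filled points are the genes called by edgeR, Crebzf higher and Ywhag and Cited2 lower, and none lies in the CREB family.

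The make-up of the tumors was read beside these values. Intestinal epithelium and carcinoma markers summed to between 109.9 and 124.2 CPM in NaCl and between 76.9 and 92.5 CPM in H89 tumors, and among these 7 genes Vil1 and Cdx2 were under 0.5 CPM in every tumor. The 4 of these markers that were tested split, with 2 log2 fold changes above and 2 below 0 and a median of -0.21. The edgeR test called 0 of the 4, with 2 lower at an unadjusted p under 0.05, and DESeq2 called Krt18 and Krt20. Macrophage markers summed to between 921 and 1521 CPM in NaCl and between 1257 and 1459 CPM in H89, and endothelial markers to between 83.0 and 141.6 and between 69.9 and 108.0 CPM. Fibroblast markers summed to between 2476 and 2707 CPM in NaCl and between 2778 and 3563 CPM in H89. This sum lay wholly higher in H89 tumors, and the carcinoma sum wholly lower. Of the 6 fibroblast genes, 6 had log2 fold changes above 0, and 3 lay wholly higher, as 15.2% of all tested genes did. The edgeR test called 0 of the 6. At an unadjusted p under 0.05, 3 were higher, where 25.0% of all tested genes passed in either direction. DESeq2 called Col3a1. Of the 6 keratinocyte markers 5 were under 0.5 CPM in every tumor, and the skeletal muscle sum reached 18.4 CPM in H89 tumor 1 and at most 2.34 CPM in the others. Mitochondrially encoded genes took 4.89% to 6.16% of counts in NaCl and 11.1%, 10.0% and 4.94% in H89 tumors 1 to 3. The part of these differences in the levels of the CREB family genes was not tested.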

How the data were processed

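Total RNA of 6 CT26 tumors was sequenced by the authors on the BGISEQ platform. The authors deposited 1 table of 23557 genes in each tumor, and its values were read as estimated counts. They do not sum to what its name, TPM, would require, and 58.6% to 61.4% of those above 0 lie within 0.01 of a whole number. No source used here states the unit, and the levels per kilobase rest on this reading. Per the labels, the submitters' processing notes name kallisto, DESeq2 and GRCm38, with no role or order, and annotation and filters are not given in the sources used here. A record of the columns names 170 genes, and the other 23387 were read in the same way. Groups and tumor numbers came from the sample titles, and each sample is a separate tumor.

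After rounding, edgeR 4.0.16 (R 4.3.3) with TMM factors and its quasi-likelihood test was applied to the 13118 genes that averaged 0.5 CPM or more, with treatment alone in the design and Benjamini-Hochberg adjustment over these genes. The authors' own comparisons were not used. The procedure was first tested on simulated counts, with changes larger than those of the members and no trend with length or GC content. That test does not cover changes as small as those of the members. Printed CPM are estimated counts divided by the total times the TMM factor (0.956 to 1.06). Alternatives were no filter, a minimum of 5 CPM, median ratio scaling, quantile normalization with limma 3.58.1, limma-voom, DESeq2 1.42.0, the tumor number as a block, each tumor left out, and a loess offset (span 0.3) for length and GC content of the longest coding GENCODE M21 transcript. Single members were compared by exact permutation of the mean log2(CPM + 0.5), and the plan's CPM was read as TMM-scaled. Depth leaves 99 counts for the lowest member value.

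The members and lists were chosen with earlier results of these data known. The genes named are the 9 members, in each list every gene called and the 3 with the smallest p, and for each member the gene with the most similar pattern. Outside this rule stand Prkaca, Prkacb and Rps6ka5, named as known H89 targets, and the genes that DESeq2 called or that markers gave, chosen after their values were seen. Malat1 and Neat1, planned as signs of RNA quality, were not analysed here.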

Additional observations from a re-analysis of the deposited data

How the results depend on the processing

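The count of CREB family genes called was 0 of 9 under every alternative except the length and GC correction, where it was 1, Creb1. The genes called over the whole table were 208, and 81 under quantile normalization with limma, 1392 of 13350 genes with an adjusted p in DESeq2, 727 with the length and GC correction, 0 with the replicate number as a block and between 0 and 12 with 1 tumor left out. Unadjusted p under 0.05 were reached by 3285 genes, by 3750 with the block and by 2421 to 3453 with 1 tumor left out. Same-numbered tumors deviated from their group means with correlations of 0.16, 0.061 and -0.025, so the numbers were not taken as a pairing, and under the block 0 of the 9 members were called and the calls of Crebzf, Ywhag and Cited2 were lost (adjusted p 0.064, 0.064 and 0.0651).

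Directions changed for 4 members, none of them called without a correction. Crtc1 was at 0.026 with a minimum of 5 CPM, 0.010 under quantile normalization, 0.032 and 0.004 without NaCl tumor 1 or 2 and 0.039 without H89 tumor 3. Creb5 was at -0.052 under quantile normalization, -0.10 under the correction and -0.22 without H89 tumor 3. Crem was at -0.013 both under quantile normalization and without H89 tumor 3, and Creb1 was at 0.025 without H89 tumor 1. With 1 tumor left out in turn, log2 fold changes ran from -0.197 to 0.025 for Creb1, from -0.013 to 0.336 for Crem, from -0.218 to 0.348 for Creb5 and from -0.051 to 0.039 for Crtc1. The causes were not tested. Crem, under 5 CPM on average, has no value with that minimum. Crem had the fewest counts and 3 tumors a group limit the precision.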
